A study of Homo sapiens with 12 samples.

Results

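The high mobility group (HMG) chromatin proteins were followed through 9 genes chosen by name: HMGA1 and HMGA2, HMGB1, HMGB2 and HMGB3, and HMGN1, HMGN2, HMGN3 and HMGN5. All 9 were found among the 57133 gene names counted in each RNA sequencing library, all 9 had counts, and all 9 passed the filter on low counts that left 14504 genes for testing. Of the 9, HMGB2 fell most when p16 or p21 was induced, to 14.4% and 15.7% of the control level, and HMGA2 rose most when Torin2 was added to p16 cells, to 520% of its level without the drug. HMGN1 varied least, with a ratio of 1.12 between its highest and lowest group mean, against 11 for HMGA2 and 6.92 for HMGB2.

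The cells were MCF10-A, a non-tumorigenic epithelial line from human breast, carrying a doxycycline-inducible construct. The control group expressed mVenus, a yellow fluorescent protein, alone; the p16 group expressed mVenus joined to p16, an inhibitor of the cyclin D-dependent kinases; and the p21 group expressed mVenus joined to p21, a broader inhibitor of cyclin-dependent kinases. All groups received doxycycline at 50 ng/ml and were collected on day 5. The mVenus, p16 and p21 groups received the solvent DMSO, and the group p16 with Torin2 received 100 nM of Torin2, an inhibitor of the kinase mTOR, starting 24 hours after doxycycline. Torin2 was given to p16 cells only, so its values have no counterpart in mVenus or p21 cells. Each of the 4 groups had 3 biological replicates, the series' own term, and the groups stand for forced expression of a transgene in a single cell line.

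HMG proteins are small, abundant non-histone proteins that bind chromatin and bend, open or bridge DNA. HMGA proteins grip AT-rich DNA with short AT hooks, HMGB proteins bend DNA with a pair of HMG boxes, and HMGN proteins sit on the nucleosome itself and compete there with linker histone H1. Several are studied in cellular senescence: HMGA proteins accumulate in the compact heterochromatin foci of some senescent cells, loss of HMGB2 accompanies exit from the cell cycle, and HMGB1 can leave the nucleus and act outside the cell as an alarm signal.

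The bases that set the members apart show how far their reads can be told from one another. The first 120 coding bases of the HMGB genes, which lead into the first HMG box, are given 5′ to 3′ as joined exons of GENCODE 29 on GRCh38, on the coding strand, with capitals where a base differs from HMGB1 at the same position.
HMGB1: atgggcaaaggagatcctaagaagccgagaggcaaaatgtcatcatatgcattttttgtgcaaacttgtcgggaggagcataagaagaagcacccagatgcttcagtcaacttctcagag
HMGB2: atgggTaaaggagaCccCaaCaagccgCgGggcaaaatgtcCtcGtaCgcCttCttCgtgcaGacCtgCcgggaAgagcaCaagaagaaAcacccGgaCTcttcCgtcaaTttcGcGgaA
HMGB3: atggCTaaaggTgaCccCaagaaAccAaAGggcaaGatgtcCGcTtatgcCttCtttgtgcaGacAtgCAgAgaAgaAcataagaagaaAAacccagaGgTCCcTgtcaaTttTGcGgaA
HMGB2 differed from HMGB1 at 26 of these positions (78.3% identical) and HMGB3 at 34 (71.7% identical). Over the aligned coding sequences HMGB1 and HMGB2 were 75.3% identical, HMGB1 and HMGB3 69.3%, and HMGB2 and HMGB3 69.9%.

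The HMGA genes carry the AT hook that names the family's way of binding, shown here with the codons of its core in capitals at the first of 3 matches in each coding sequence.
HMGA1: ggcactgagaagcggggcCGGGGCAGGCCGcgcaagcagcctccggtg
HMGA2: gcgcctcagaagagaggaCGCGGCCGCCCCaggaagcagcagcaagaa
These stretches are coding bases 58 to 105 of HMGA1 and 67 to 114 of HMGA2. The 2 coding sequences, 324 bases in HMGA1 and 444 in HMGA2, were 41.5% identical when aligned. Each was the longest of its gene among transcripts with a complete, consensus coding sequence, and other coding sequences of these genes were not compared.

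The HMGN genes share a nucleosome-binding core, whose codons stand in capitals below, with 1 match in each coding sequence.
HMGN1: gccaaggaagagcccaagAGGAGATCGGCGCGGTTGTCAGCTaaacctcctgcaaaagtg
HMGN2: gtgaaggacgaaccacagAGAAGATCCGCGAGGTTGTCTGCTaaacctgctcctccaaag
HMGN3: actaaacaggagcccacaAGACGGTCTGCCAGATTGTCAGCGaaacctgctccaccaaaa
HMGN5: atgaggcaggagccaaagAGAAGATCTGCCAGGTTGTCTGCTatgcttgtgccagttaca
HMGN1 and HMGN2 were 56.6% identical over their aligned coding bases. HMGN2 and HMGN4, which is not among the 9 genes, were 86.4% identical.

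In GENCODE 29 on GRCh38, HMGA1 lies at chr6:34236873-34246231 (+), HMGA2 at chr12:65824131-65966295 (+), HMGB1 at chr13:30456704-30617597 (-), HMGB2 at chr4:173331695-173335125 (-) and HMGB3 at chrX:150980509-150990775 (+). HMGN1 lies at chr21:39342315-39349647 (-), HMGN2 at chr1:26472450-26475972 (+), HMGN3 at chr6:79201245-79234738 (-) and HMGN5 at chrX:81113701-81201942 (-). All 9 are protein coding, and the counts cover all annotated exons of each. Counting used no strand, so reads over bases shared by overlapping genes cannot be assigned by strand. HMGN3 shares 19.0% of its exonic bases with HMGN3-AS1, and HMGA2 shares 2.49% with AC090673.1. Whether reads over these shared bases were counted for either gene or left out was not tested. The annotation also lists 48 pseudogenes of HMGB1, 36 of HMGN2, 31 of HMGN1, 29 of HMGB3 and 8 of HMGA1. Their counts were 7.80% of the joint total for HMGB1, 3.60% for HMGN1, 2.90% for HMGA1, 2.86% for HMGN2 and 1.08% for HMGB3. Of the words of 50 bases in each gene's transcripts, 13.9% for HMGN2, 10.9% for HMGB1 and 7.59% for HMGA1 also occur in transcripts of other genes. The share was 4.20% for HMGN1, 3.53% for HMGB3, 2.68% for HMGA2, 0.349% for HMGB2 and 0.0384% for HMGN5. It was 13.6% for HMGN3, all of it with HMGN3-AS1. These are shares of words and not of reads, and how uncertain they make the levels was not tested.

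Library totals ran from 13168749 to 18321114 counts, of which the 9 genes took 0.0388% to 0.0693%. Levels are given as CPM, the counts per 1000000 of the library size after TMM scaling, a scaling that equalises most genes between libraries. Replicates had r = 0.992 to 0.994 on log2 CPM across genes, which are not independent replicates. CDKN1A, the p21 gene, stood at 711 ± 13 CPM (SD, n = 3) in mVenus and at 888 ± 16.5 CPM in p21 (log2 fold change 0.32 ± 0.04, SE, edgeR adjusted p = 1.18e-07). It also moved in groups without a p21 transgene, to 570 ± 30.1 CPM in p16 and 259 ± 17.0 with Torin2. Whether its counts hold reads of the transgene was not tested, so they are a weak check of the p21 label. CDKN2A, the p16 gene, had 0 counts in all 12 libraries, so these counts give no check of the p16 label; 3 counts over a group, the limit that a count of 0 allows, equal 0.0586 to 0.0659 CPM. Mitochondrial transcripts took 3.85% to 3.91% of counts in mVenus and 5.66% to 6.98% in the other libraries. In bulk RNA, fewer cells of a kind and less RNA per cell cannot be told apart, and this holds for every level below.

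In all, 5 comparisons were made with edgeR's quasi-likelihood test over all genes, and a gene was called at a Benjamini-Hochberg adjusted p under 0.05. In p16 against mVenus 1 member was higher, 6 were lower and 2 were not called, where 63.6% of all tested genes were called (30.9% higher, 32.8% lower). In p21 against mVenus 7 were lower and 0 higher, where 56.6% of all genes were called (28.2% higher, 28.4% lower); at an unadjusted p under 0.05 edgeR gave 0 higher too, as did DESeq2 at its adjusted p. In p16 with Torin2 against p16, 5 were higher and 3 lower, with 59.6% of all genes called (30.5% higher, 29.1% lower). In p21 against p16, 1 was higher and 3 lower, with 54.3% of all genes called (27.2% higher, 27.1% lower). In p16 with Torin2 against mVenus, 2 were higher and 7 lower, with 67.4% of all genes called (31.2% higher, 36.2% lower). The comparisons share libraries and are not independent of each other. Being called was common among all genes, and the members are described below by size and direction. When libraries were scaled by their totals alone, the share of higher genes among all calls went from 48.5% to 36.9% in p16 and from 49.9% to 39.6% in p21 against mVenus, with a shift of the median of all genes by -0.11 in p16 (log2), and no call of a member changed. In the authors' deposited tables, which cover 3 of the comparisons, the 27 log2 fold changes of the members lay within 0.0213 of these values and on the same side of the threshold in 27 of 27. The sign was the same in 26, the exception being HMGN1 in p21 against mVenus (0.0095 in the authors' deposited table, -0.0030 here, called in neither).

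The median log2 fold change of the 9 genes was -0.59 in p16 and -0.73 in p21 against mVenus, beside -0.00 over all tested genes in both. It was 0.37 with Torin2 against p16 (all genes 0.02), -0.07 in p21 against p16 (all genes -0.01) and -0.59 with Torin2 against mVenus (all genes -0.03). The 3 libraries of a group did not overlap those of the other group for 7, 8, 8, 5 and 9 members in p16 against mVenus, p21 against mVenus, Torin2 against p16, p21 against p16 and Torin2 against mVenus; over all genes this held for 65.9%, 64.4%, 62.0%, 58.9% and 71.2%.

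**Figure D1:**
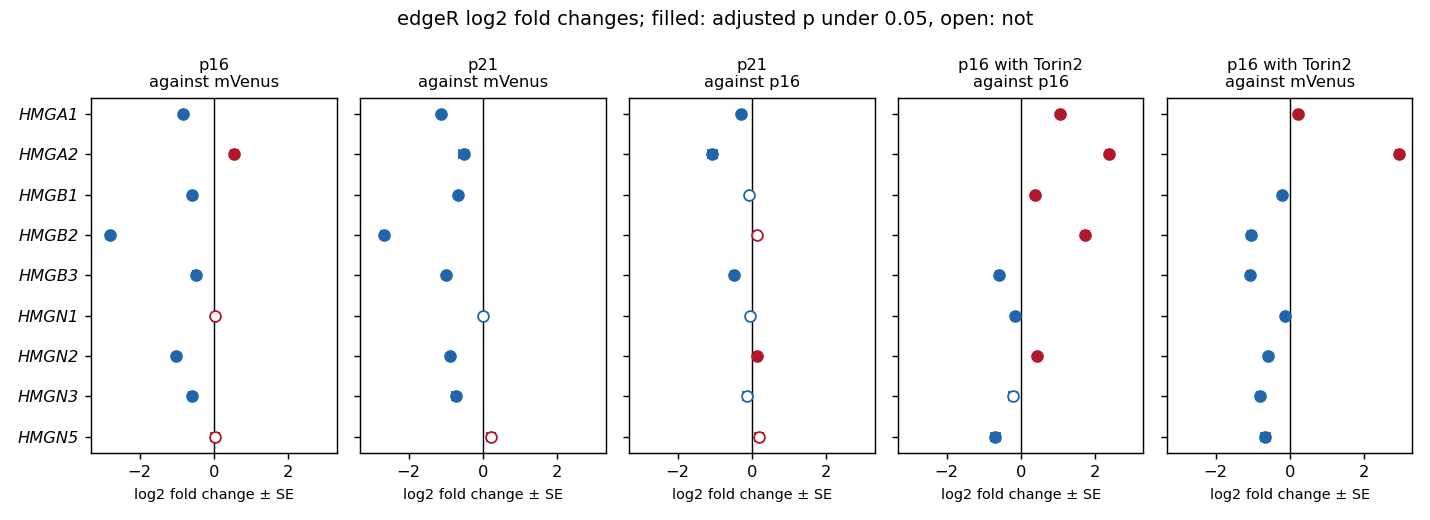
The log2 fold change (x axis, with SE as horizontal bars, often smaller than the symbol) of each of the 9 HMG genes (rows) is plotted for the 5 comparisons (panels), filled where the edgeR adjusted p was under 0.05 and open otherwise. HMGB2 lies farthest to the left in p16 and p21 against mVenus (-2.79 and -2.67), and HMGA2 farthest to the right with Torin2 (2.38 against p16, 2.93 against mVenus).

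HMGB2, an HMG-box protein abundant in dividing cells, was present at 54.2, 58.1 and 55.6 CPM in the mVenus libraries. It was at 7.10, 8.42 and 8.73 CPM in p16 and at 8.94, 8.78 and 8.65 CPM in p21. With Torin2 the p16 libraries held 27.8, 27.2 and 25.7 CPM. Every p16 and p21 library lay below every mVenus library, the Torin2 libraries stood between, and the p16 and p21 ranges overlapped. HMGB2 fell by 2.79 ± 0.07 in p16 on the log2 scale (SE; edgeR adjusted p = 8.70e-23) and fell by 2.67 ± 0.07 in p21 (edgeR adjusted p = 2.30e-22), and 1.70% of all tested genes lay at or below its fold change in p16. Torin2 cells had 3.33-fold more of it than p16 cells (log2 fold change 1.74 ± 0.08, edgeR adjusted p = 1.03e-16), yet 48.1% of the mVenus level (-1.05 ± 0.06, edgeR adjusted p = 5.00e-15). Between p21 and p16 the log2 difference was 0.12 ± 0.10 (edgeR adjusted p = 0.315), not called. These levels rest on 114 to 142 counts per library in the p16 and p21 groups and 796 to 1035 in mVenus.

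Proliferation transcripts moved alongside. MKI67, the Ki-67 proliferation marker, was at 331 ± 15.6 CPM in mVenus, 10.1 ± 0.426 in p16, 3.35 ± 0.424 in p21, and 51.5 ± 0.647 with Torin2 (SD, n = 3). Of 17 S phase and mitosis genes, 17 were lower in p16 and 17 in p21 against mVenus (median log2 fold changes -3.51 and -3.90), 14 were higher and 2 lower with Torin2 against p16, with a list median of 1.05, and 17 were still lower with Torin2 than in mVenus (median -2.24). In p21 against p16, 13 of the 17 were lower and 3 higher (median -0.67), among them PLK1, a mitotic kinase (-2.52 ± 0.11, edgeR adjusted p = 2.35e-17), and PCNA, the replication clamp (0.42 ± 0.07, edgeR adjusted p = 3.65e-06). The part of proliferation in the HMG values was not tested.

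HMGB1, an HMG-box protein found in nearly all cells, held 106, 105 and 110 CPM in mVenus, 69.5, 67.2 and 76.4 in p16, 67.9, 71.1 and 63.3 in p21, and 97.8, 86.0 and 90.9 with Torin2. The p16 and p21 groups overlapped each other and lay below mVenus, and the Torin2 libraries fell between. It fell by 0.59 ± 0.05 in p16 (edgeR adjusted p = 1.34e-10) and by 0.66 ± 0.05 in p21 (edgeR adjusted p = 1.84e-11) on the log2 scale. With Torin2 it was 1.29-fold higher than in p16 (0.37 ± 0.05, edgeR adjusted p = 1.41e-06) and at 85.8% of mVenus (edgeR adjusted p = 0.000512). Its pseudogenes held 6.74% to 8.76% of the joint count over the 12 libraries, and no call changed when those counts were added to it.

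HMGB3, an HMG-box gene known from stem and progenitor cells, was lower in all groups than in mVenus and lower with Torin2 than in p16. Its libraries were at 43.7, 45.1 and 47.1 CPM in mVenus, 31.1, 34.7 and 30.7 in p16, 20.6, 25.4 and 22.5 in p21, and 19.8, 23.2 and 21.4 with Torin2. The p21 and Torin2 libraries overlapped at the bottom, with p16 between them and mVenus. HMGB3 fell by 0.49 ± 0.07 in p16 (edgeR adjusted p = 3.64e-07) and by 0.98 ± 0.07 in p21 (edgeR adjusted p = 1.80e-12), and p21 was lower than p16 in the direct comparison (-0.49 ± 0.08, edgeR adjusted p = 3.16e-06). Torin2 lowered it further in p16 cells, by 0.58 ± 0.08 (edgeR adjusted p = 1.82e-07), while HMGB1 and HMGB2 rose.

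**Figure D2:**
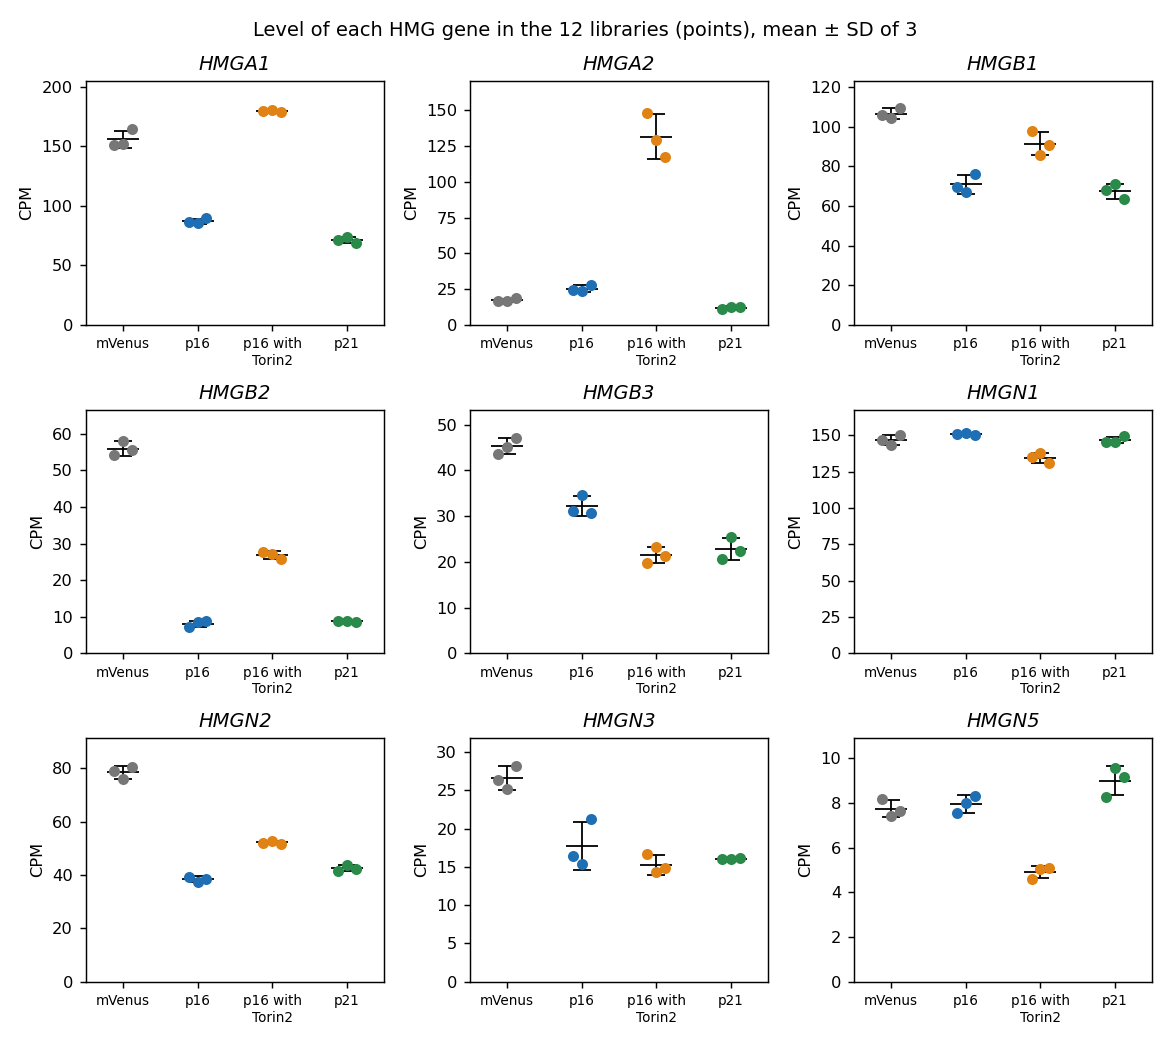
Each panel plots 1 HMG gene, with CPM on the y axis from 0, the 4 groups on the x axis, a point for each of the 12 libraries and the mean ± SD of 3. HMGB2 sits at 7.10 to 8.94 CPM in all p16 and p21 libraries against 54.2 to 58.1 in mVenus, HMGA2 at 117 to 148 CPM in the Torin2 libraries against 10.8 to 28.0 elsewhere, and HMGN1 at 131 to 152 CPM throughout.

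HMGA2, an AT-hook protein of embryonic and tumour cells that is scarce in most adult tissue, was at 16.7, 16.5 and 18.5 CPM in mVenus. It reached 24.0, 23.9 and 28.0 CPM in p16 and 10.8, 12.5 and 12.7 CPM in p21. In the Torin2 libraries it stood at 148, 129 and 117 CPM. No group overlapped another, and the order from the top was p16 with Torin2, p16, mVenus and p21. HMGA2 was the single member higher in p16 than in mVenus (0.55 ± 0.10, edgeR adjusted p = 9.69e-05), and it was lower in p21 (-0.52 ± 0.12, edgeR adjusted p = 0.000818). The direct comparison of p21 with p16 gave -1.07 ± 0.11 (edgeR adjusted p = 9.62e-08), that is 47.5% of the p16 level. Torin2 raised it 5.21-fold over p16 (2.38 ± 0.08, edgeR adjusted p = 2.36e-15), a rise matched or passed by 0.338% of all tested genes, and 7.62-fold over mVenus (2.93 ± 0.08, edgeR adjusted p = 9.85e-17). Leaving out any single library kept every HMGA2 call.

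HMGA1, the relative expressed in growing cells of many kinds, was at 151, 152 and 164 CPM in mVenus, 86.1, 85.8 and 89.6 in p16, 71.1, 73.4 and 68.9 in p21, and 180, 180 and 179 with Torin2. The 4 groups again did not overlap. It fell to 56.0% of mVenus in p16 (-0.84 ± 0.04, edgeR adjusted p = 2.81e-16) and to 45.7% in p21 (-1.13 ± 0.04, edgeR adjusted p = 5.63e-19), and p21 was lower than p16 by 0.29 ± 0.05 (edgeR adjusted p = 3.21e-06). With Torin2 it rose 2.06-fold over p16 (1.04 ± 0.04, edgeR adjusted p = 3.03e-18) and stood 1.15-fold above mVenus (0.20 ± 0.04, edgeR adjusted p = 5.77e-05). HMGA1 and HMGA2 were the only members of the 9 called higher with Torin2 than in mVenus.

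HMGN2, a nucleosome-binding protein that loosens compact chromatin, was at 79.1, 75.9 and 80.6 CPM in mVenus, 39.3, 37.2 and 38.7 in p16, 41.6, 43.8 and 42.3 in p21, and 52.2, 52.9 and 51.7 with Torin2. None of these ranges overlapped. It fell by 1.03 ± 0.05 in p16 (edgeR adjusted p = 7.25e-17) and by 0.88 ± 0.05 in p21 (edgeR adjusted p = 2.87e-15), and Torin2 raised it 1.36-fold over p16 (edgeR adjusted p = 2.25e-08). The difference of p21 over p16 was small, 0.15 ± 0.05 (edgeR adjusted p = 0.0194), and the call was lost without p16 replicate 2 (edgeR adjusted p = 0.0825) or without p21 replicate 2 (edgeR adjusted p = 0.0865). HMGN4, its close relative in sequence, was at 42.4 CPM in mVenus, 45.1 in p16, 47.3 in p21 and 65.2 with Torin2. It was called higher in p21 against mVenus (0.16 ± 0.05, edgeR adjusted p = 0.00858) and with Torin2 against p16 (0.53 ± 0.05, edgeR adjusted p = 1.93e-10). HMGN4 was also called higher with Torin2 against mVenus (0.62 ± 0.05, edgeR adjusted p = 4.44e-12).

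HMGN1, which also binds nucleosomes and is studied in DNA repair, varied least. Its libraries were at 147, 143 and 151 CPM in mVenus, 151, 152 and 150 in p16, 146, 145 and 149 in p21, and 135, 138 and 131 with Torin2. The mVenus range overlapped those of p16 and p21, p21 lay just below p16 without overlap, and the Torin2 libraries lay below all others. The log2 difference from mVenus was 0.04 ± 0.04 in p16 (edgeR adjusted p = 0.411) and -0.00 ± 0.04 in p21 (edgeR adjusted p = 0.955), neither called, and Torin2 lowered it by 0.16 ± 0.04 against p16 (edgeR adjusted p = 0.000510).

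HMGN3, which carries the same core, was at 26.3, 25.2 and 28.2 CPM in mVenus, 16.4, 15.4 and 21.2 in p16, 16, 16.1 and 16.1 in p21, and 16.7, 14.3 and 14.8 with Torin2. All 9 libraries with p16 or p21 lay below mVenus and overlapped among themselves, and p16 replicate 3 was the highest of them. It fell by 0.60 ± 0.09 in p16 (edgeR adjusted p = 1.12e-06) and by 0.73 ± 0.09 in p21 (edgeR adjusted p = 6.38e-08). With Torin2 it differed from p16 by -0.21 ± 0.10 (edgeR adjusted p = 0.0640), not called; without p16 replicate 1, p16 replicate 2 or Torin2 replicate 1 the edgeR adjusted p was 0.0346, 0.0147 or 0.0283. The overlapping HMGN3-AS1, which rose in p16 (1.24 ± 0.26, edgeR adjusted p = 0.000124), had a highest group mean of 2.43 CPM, in p16, and its part in the HMGN3 value was not tested.

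HMGN5, a member with a long acidic tail, had 71 to 156 counts per library. Its levels were 8.17, 7.44 and 7.67 CPM in mVenus, 7.54, 8.03 and 8.32 in p16, 8.28, 9.58 and 9.16 in p21, and 4.62, 5.04 and 5.11 with Torin2. The Torin2 libraries were below all others, the p16 range overlapped those of mVenus and p21, and the p21 range began just above that of mVenus. It differed from mVenus by 0.03 ± 0.11 in p16 (edgeR adjusted p = 0.824) and by 0.22 ± 0.11 in p21 (edgeR adjusted p = 0.0847), not called in either, and fell with Torin2 by 0.69 ± 0.12 against p16 (edgeR adjusted p = 1.04e-05). Within the HMGB and HMGN families the members called with Torin2 against p16 went both ways, while HMGA1 and HMGA2 both rose: HMGB1 and HMGB2 rose and HMGB3 fell, and HMGN2 rose while HMGN1 and HMGN5 fell.

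Set against mVenus, where transgene and drug differ at once, the p16 cells with Torin2 had lower levels of every HMGB and HMGN gene among the members. This included HMGN1 and HMGN5, which were not called in p16 alone. HMGN4, which is not among the members, went the other way, at 65.2 CPM against 42.4 in mVenus (0.62 ± 0.05, edgeR adjusted p = 4.44e-12). HMGB3 was at 47.4% of mVenus (-1.08 ± 0.07, edgeR adjusted p = 1.85e-13), HMGN3 at 57.3% (-0.81 ± 0.09, edgeR adjusted p = 7.79e-09), HMGN5 at 63.4% (-0.66 ± 0.12, edgeR adjusted p = 1.36e-05) and HMGN2 at 66.5% (-0.59 ± 0.05, edgeR adjusted p = 8.46e-12). HMGN1 was at 91.6% (-0.13 ± 0.04, edgeR adjusted p = 0.00418), the smallest of these differences, and it was no longer called when genes with low counts were kept (edgeR adjusted p = 0.0867).

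Levels of different genes were compared per kilobase of exon, as CPM divided by the length of all annotated exons of a gene joined, which counts exons a cell may not use. On this scale HMGA1 was first of the 9 in all 4 groups, at 66.9 ± 3.19 in mVenus, 37.5 ± 0.903 in p16, 30.6 ± 0.961 in p21, and 77.2 ± 0.410 with Torin2 (SD, n = 3). In mVenus it was followed by HMGN2, HMGN1, HMGN3, HMGB2, HMGB1, HMGB3, HMGN5 and HMGA2, with no neighbours overlapping. HMGB2 was at rank 5 there with 20.2 ± 0.706, and fell to rank 8 in p16 (2.91 ± 0.311, overlapping HMGN5) and in p21 (3.17 ± 0.0518). HMGA2, whose exons span 15.403 kb, was last in mVenus, p16 and p21 and rank 7 with Torin2, where its 8.55 ± 1.0 overlapped the 9.69 ± 0.378 of HMGB2. In p16 HMGN3 and HMGN2 also overlapped, as did HMGB1 and HMGB3. These ranks, and the shares below, depend on the exon lengths used. By CPM without this division HMGN1 stood above HMGA1 in p16 (151 against 87.2) and p21 (147 against 71.1). HMGA1 stood above HMGN1 in mVenus (156 against 147) and with Torin2 (180 against 135).

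Added over the 9 genes, the level per kilobase was 203 ± 6.58 in mVenus, 125 ± 4.73 in p16, 114 ± 2.26 in p21 and 177 ± 3.20 with Torin2. HMGA genes made up 33.5% of that sum in mVenus, 31.3% in p16, 27.4% in p21 and 48.4% with Torin2. HMGN genes made up 44.1%, 52.5% and 57.1% in mVenus, p16 and p21, and 36.3% with Torin2. Within the HMGB genes, HMGB2 held 44.4% ± 1.1 in mVenus, 14.4% ± 1.04 in p16, 18% ± 0.99 in p21 and 35.9% ± 0.760 with Torin2. Within the HMGA genes, HMGA2 held 1.64% ± 0.0311, 4.2% ± 0.273, 2.49% ± 0.231 and 9.96% ± 1.02 in mVenus, p16, p21 and Torin2 cells.

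**Figure D3:**
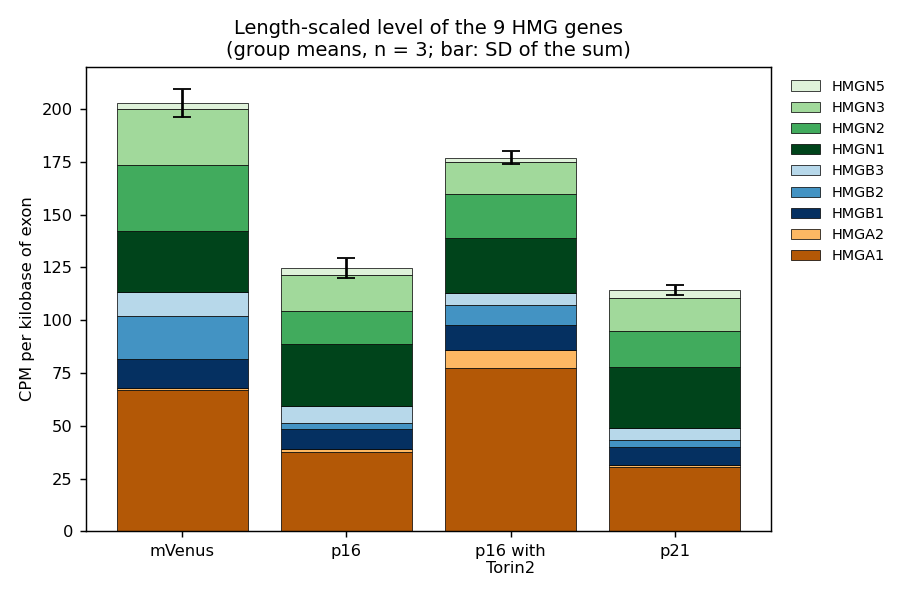
Stacked bars give the mean CPM per kilobase of exon (y axis, from 0) of the 9 HMG genes in each group (x axis), and the error bar is the SD of the sum over 3 libraries. The sum is 203 in mVenus, 125 in p16, 114 in p21, and 177 with Torin2, HMGA1 is the largest block in each bar, and the HMGB2 block narrows from 20.2 to 2.91 and 3.17 in p16 and p21.

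Promoters from RefSeq on GRCh38.p14 (250 bases before to 50 after a start) were in the table for 7 members, in 11 windows, since a gene can have several starts; HMGA2 and HMGB2 were not analysed here. On either strand, TTTGAA, the core of the CHR element of cell cycle genes, occurs in 15.2% of all 35116 windows and in 2 of the 11, 1 each of HMGB1 and HMGB3. CCAAT occurs in 34.6% of all windows and in 8 of the 11, which belong to 6 of the 7 members, all but HMGN5. The words TTCCCGC and TTGGCGC, both taken as E2F-type sites, and the related TTCGCGC occur in 11% of windows and in 0 of the 11. HMGB3, which fell in both p16 and p21, is shown at chrX:150983123-150983222 (+, GRCh38.p14), from 212 to 113 bases before chrX:150983335, 1 of its 2 RefSeq starts in the table, because TTTGAA and CCAAT, both in capitals, lie close together there. That start, and the stretch shown, lie inside the gene span given above, which begins further upstream in GENCODE 29.
HMGB3 promoter: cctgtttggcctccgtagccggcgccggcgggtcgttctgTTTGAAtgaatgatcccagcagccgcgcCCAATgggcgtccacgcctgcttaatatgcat
A match describes letters in this window and is not evidence of a bound site.

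The genes whose pattern over the 12 libraries came nearest to a member's were found by the root mean square difference of centred log2 CPM among 10267 genes with a mean of at least 5 CPM. For HMGA2 they were PIM1 (difference 0.219), CCDC33 (0.327) and PRDM1 (0.505), whereas HMGA2 itself varied by 1.32 on that measure. PIM1, a serine/threonine kinase, was at 22.1 ± 2.01 CPM in mVenus, 44.6 ± 1.13 in p16, 16.8 ± 0.677 in p21, and 195 ± 8.84 with Torin2. For HMGB2 they were RBL1 (0.208), which encodes the pocket protein p107, PHF19 (0.236) and STMN1 (0.267). RBL1 was at 32.6 ± 1.48, 5.77 ± 0.565, 7.29 ± 0.775 and 17.3 ± 0.487 CPM in the same order of groups. CBX5, the gene of the heterochromatin protein HP1 alpha, came nearest to HMGN2 (0.0632), with 286 ± 10.5, 143 ± 8.85, 164 ± 7.74 and 197 ± 4.26 CPM in that order. The nearest to the others were PM20D2 for HMGA1 (0.103), GLRX3 for HMGB1 (0.0630), SERPINH1 for HMGB3 (0.0963), DCAF7 for HMGN1 (0.0331), SNX4 for HMGN3 (0.0869) and COL4A5 for HMGN5 (0.0808). On the same measure HMGA1 itself varied by 0.558, HMGB1 by 0.278, HMGB3 by 0.440, HMGN1 by 0.0659, HMGN3 by 0.335 and HMGN5 by 0.331. HMGB2 varied by 1.16 and HMGN2 by 0.395. Each difference is to be read beside these values, since a nearly flat gene such as HMGN1 gives small differences. The points of each pattern share libraries, and the likeness is a description.

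**Figure D4:**
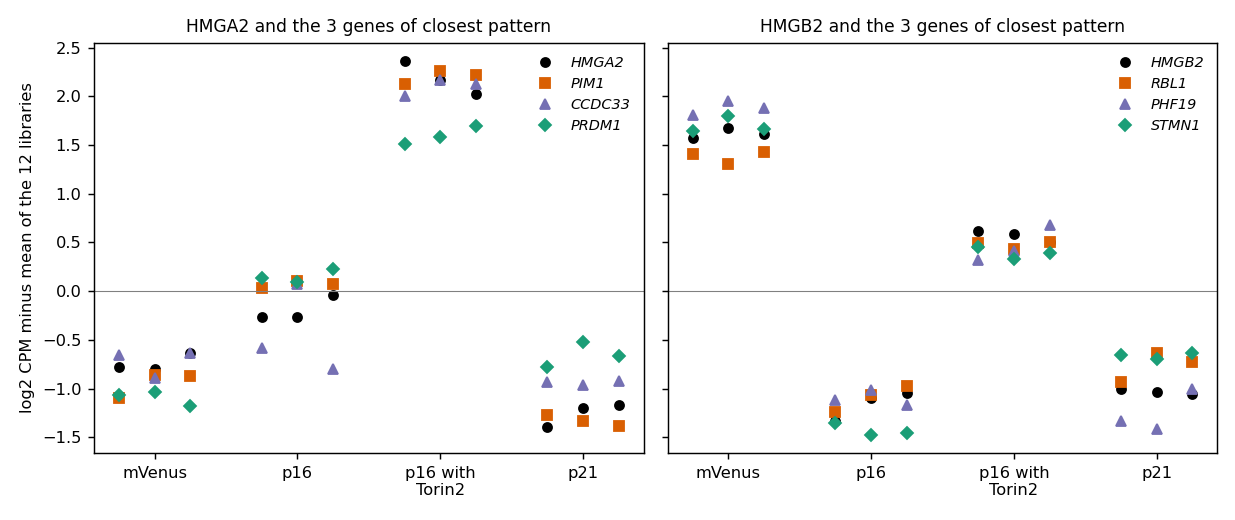
The log2 CPM of each library minus the gene's mean over the 12 libraries (y axis) is plotted by group (x axis) for HMGA2 and HMGB2 (black circles) with the 3 genes of nearest pattern. HMGA2 and PIM1 differ by a root mean square of 0.219 and HMGB2 and RBL1 by 0.208; PRDM1 lies 0.505 from HMGA2.

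Other genes that work with or beside the HMG proteins were described from 6 lists, each with its counts of called genes and its median log2 fold change. The comparisons are taken in the order p16 and p21 against mVenus, Torin2 against p16, p21 against p16 and Torin2 against mVenus, in which the medians over all genes were -0.0036, -0.0037, 0.02, -0.01 and -0.03. In that order 63.6%, 56.6%, 59.6%, 54.3% and 67.4% of all tested genes were called, and the counts of each list are to be read beside these shares. Of 28 tested genes with an HMG box or HMGN motif outside the 9, 9 were higher and 9 lower in p16, 6 and 11 in p21, 12 and 7 with Torin2 against p16, 5 and 10 in p21 against p16, and 13 and 8 with Torin2 against mVenus. The list's medians were 0.01, -0.03, 0.19, -0.04 and 0.02. SOX9, an HMG-box transcription factor of epithelial progenitors, rose in p16 from 12.4 ± 1.1 to 91.2 ± 4.29 CPM (2.88 ± 0.07, edgeR adjusted p = 1.73e-23) and was at 13.3 ± 1.44 in p21. WDHD1, an HMG-box protein of the replication fork, fell from 30.4 to 9.27 CPM in p16 and to 8.61 in p21 and stood at 16.1 with Torin2. SSRP1, the HMG-box subunit of the histone chaperone FACT, was at 152 CPM in mVenus, 107 in p16, 93.9 in p21 and 147 with Torin2. HMGB4 had 0 counts in all 12 libraries.

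Linker histones, which share nucleosome sites with HMGN proteins, had 4 tested genes, with 1 higher and 2 lower in both p16 and p21 against mVenus. HIST1H1C was the one that rose, from 30.8 ± 1.27 CPM in mVenus to 101 ± 5.42 in p16 and 115 ± 2.25 in p21, and with Torin2 it was at 24.3 ± 2.15 (-2.05 ± 0.06 against p16, edgeR adjusted p = 1.51e-21). H1FX and H1F0 fell, to 66.4% and 72.4% of mVenus in p16 and to 65.2% and 82.6% in p21. With Torin2 against p16, 2 were higher and 1 lower; in p21 against p16, 2 were higher; with Torin2 against mVenus, 2 were lower. The medians of these 4 genes were -0.38, -0.44, -0.29, 0.08 and -0.33. Libraries were selected for poly(A) RNA, which catches most replication-dependent histone messages poorly.

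Among 14 factors of senescence-associated heterochromatin foci, the compact DNA foci in which HMGA proteins accumulate, 4 were higher and 8 lower in p16, 3 and 7 in p21, 7 and 5 with Torin2 against p16, 4 and 5 in p21 against p16, and 4 and 9 with Torin2 against mVenus. Their medians were -0.13, -0.09, 0.15, 0.06 and -0.31. LMNB1, the lamin B1 gene, went from 54.1 ± 4.22 CPM in mVenus to 4.83 ± 0.229 in p16, 1.98 ± 0.697 in p21 and 14.0 ± 1.33 with Torin2. CBX1, the HP1 beta gene, fell in p16 to 45.2% of mVenus, while PML, the scaffold of PML bodies, rose to 184% in p16 and 196% in p21 and with Torin2 was at 39.1% of p16.

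Of the oncofetal genes that, like HMGA2, are known targets of let-7 microRNAs or act in that circuit, 5 were tested. In p16 against mVenus 2 were higher and 3 lower, in p21 2 and 2, and in p21 against p16 edgeR called 0 of them (1, lower, at an unadjusted p under 0.05, and 0 by DESeq2). With Torin2 all 5 were higher than in p16, by a median of 0.46 on the log2 scale against 2.38 for HMGA2, and 3 were higher than in mVenus (median 0.31). The other medians were -0.15 in p16 and -0.22 in p21 against mVenus and -0.04 in p21 against p16. DICER1, which is needed to make microRNAs, was at 101 ± 7.48 CPM with Torin2 and 73.6 ± 2.39 in p16, and IGF2BP2, an RNA-binding protein, was at 154 ± 6.82 CPM with Torin2 and 106 ± 5.18 in mVenus.

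Receptors and partners of released HMGB1 had 11 tested genes: 7 were higher and 3 lower in p16, 5 and 2 in p21, 1 and 7 with Torin2 against p16, 2 and 6 in p21 against p16, and 3 and 6 with Torin2 against mVenus. Medians were 0.73, 0.11, -0.76, -0.25 and -0.67. SDC1, a cell-surface proteoglycan, rose in p16 from 201 ± 3.39 to 754 ± 46.3 CPM but was at 136 ± 6.66 in p21. MYD88, the adaptor of Toll-like receptors, was at 81.2 CPM in mVenus, 139 in p21, 179 in p16 and 49.3 with Torin2. TLR2, a receptor for HMGB1, had 5.14 ± 0.551 CPM in mVenus and 0 counts in p16 and in p21, which makes it at least 78.9-fold and 78.0-fold lower if a group at 0 is set at 3 counts; with Torin2 it had 1 count.

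Markers of cell identity also moved with the groups. Summed over 10 markers of breast epithelium, none of them at 0, libraries held 6135 to 6403 CPM in mVenus, 15074 to 15823 in p16, 6366 to 6669 with Torin2 and 8016 to 8250 in p21. By gene, 9 of the 10 were higher and 0 lower in p16 against mVenus (median log2 fold change 1.17), 4 higher and 2 lower in p21 (median 0.01) and 5 higher and 4 lower with Torin2 (median 0.22), so in p21 and with Torin2 the markers did not move together. Over 10 mesenchymal markers the sums were 2543 to 2839, 124 to 132, 633 to 800 and 1652 to 2031 CPM in the same order, with COL1A2 at 0 in all groups but Torin2. FN1 alone gave 2438 ± 152, 61.6 ± 5.03, 563 ± 77.0 and 1587 ± 191 CPM of these sums. Of the 6 mesenchymal markers that were tested, 0 were higher and 5 lower in p16 against mVenus (median -1.93), 1 higher and 4 lower in p21 (median -0.59) and 1 higher and 5 lower with Torin2 (median -1.98). Over 7 leukocyte markers libraries summed to 53.2 to 56.9, 114 to 127, 51.1 to 55.6 and 108 to 110 CPM, nearly all from CSF1R and CD14; CD3E and TYROBP were at 0 in all groups, and PTPRC in all but mVenus. Of the 2 tested, both were higher in p16 and in p21 than in mVenus (medians 1.17 and 0.85) and neither was called with Torin2 (median -0.02). Over 6 endothelial markers they summed to 5.11 to 6.09, 23.3 to 28.0, 8.01 to 10.9 and 2.72 to 4.03 CPM. ROBO4 alone gave 2.33 ± 0.524, 21.8 ± 2.55, 6.12 ± 1.14 and 1.07 ± 0.296 CPM of these sums. Of the 3 endothelial markers tested, 2 were higher and 0 lower in p16 against mVenus (median 1.14), 0 higher and 3 lower in p21 (median -1.05), and 1 higher and 1 lower with Torin2 (median 0.06). The part of cell identity in the HMG values was not tested.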

How the data were processed

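Stranded libraries were made from the poly(A) RNA of 12 MCF10-A cultures, per the labels' protocols. The authors deposited counts per gene for each library. Per the file headers, these were made with featureCounts 1.6.3 over exons of GENCODE 29, grouped by gene name, with no option for strand, multimapping reads or read pairs, so reads that map to several places were left out. The submitters' processing notes name HISAT2, Subread, FastQC 0.11.3, DESeq2 and the build GRCh38.p7. The authors also deposited log2 fold changes and adjusted p-values for 3 comparisons, used here only as a check.

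Genes were filtered with filterByExpr (14504 of 57133 names kept), scaled by TMM (factors 0.967 to 1.05) and tested in R 4.3.3 by edgeR 4.0.16 (quasi-likelihood, two-sided) with all 12 libraries in 1 fit (8 residual degrees of freedom, common biological coefficient of variation 3.94%). Adjusted p is Benjamini-Hochberg over all 14504 genes, with a threshold of 0.05. The standard error is the absolute log2 fold change divided by the square root of F. CPM is counts per 1000000 of the TMM-scaled library, and log2 CPM used a prior count of 2. Code was tested on simulated data with 200 changed genes. Over the 5 comparisons edgeR called 32.8% to 46.3% of 1.2-fold changes in the right direction. For 1.5-fold changes it called 59.7% to 73.1%, and for 2-fold changes 80.3% to 89.4%. False calls were 3.76% to 8% of all calls. A gene not called can therefore still differ by a small amount. Alternatives used DESeq2 1.42.0 (its size factors or its test), other scalings, no filter, added pseudogene counts, fewer libraries or a replicate block. Library totals of 13168749 to 18321114 counts limit precision for low genes, and floors of 3 counts cover counting error only. Replicate libraries differed by more than counting error (chi-square over its degrees of freedom 1.60 to 5.87), so none was counted as a duplicate.

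Named genes are the 9 members, MKI67, LMNB1, HMGN4, SSRP1 and HMGB4, CDKN2A and CDKN1A as a label check, and, from each of 6 lists per comparison, up to 2 largest rises and 2 largest falls among genes called with at least 5 CPM in the higher group. For each member the 3 genes of nearest pattern were found. HMGN3-AS1 was added for its overlap with HMGN3. The members and lists were chosen with earlier results of these data known. Coding sequences come from GENCODE 29 and promoters from RefSeq.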

Additional observations from a re-analysis of the deposited data

Results flagged for a closer look

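In the direct comparison of p21 with p16, both set against the same mVenus control, 4 of the 9 members differed between the inhibitors by edgeR's test. The log2 difference of p21 minus p16 was -1.07 for HMGA2 (25.3 CPM in p16, 12.0 in p21), which was above mVenus in p16 and below it in p21. It was -0.49 for HMGB3 and -0.29 for HMGA1, which were below mVenus in both and lower in p21. It was 0.15 for HMGN2, which was below mVenus in both and lower in p16; that call was lost in 4 alternatives. Of all tested genes, 54.3% were called in this comparison.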

How the results depend on the processing

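Of 280 recomputed counts, 276 stayed within 1.5 times the reported value. Of 630 recomputed member values, 621 kept their side of the threshold, 5 lost the call and 4 gained it. Among values called in either fit, 0 changed direction. Some values called in neither fit did change direction. An example is HMGN1 in p16 against mVenus, reported at 0.04 and running from -0.07 to 0.09 over the alternatives (log2). The count of members higher in p21 than in p16 went from 1 to 0 with no low-count filter and with the DESeq2 test, and ran from 0 to 1 over the fits without 1 library; the gene was HMGN2 (adjusted p 0.0659 with no filter in edgeR, 0.0756 in DESeq2, and 0.0825 and 0.0865 without replicate 2 of p16 or of p21 in edgeR). HMGN3 with Torin2 against p16 was called with no filter (edgeR adjusted p = 0.0270) and without p16 replicate 1 or 2 or Torin2 replicate 1. HMGN1 with Torin2 against mVenus lost its call with no filter (edgeR adjusted p = 0.0867). The cause of these changes was not tested.

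Whether the replicate numbers pair the samples could not be settled with 3 libraries per group. Same-numbered libraries of different groups had a median r of 0.0142 in their deviations (-0.0822 to 0.0754, 18 pairs). For other numbers it was -0.00296 (-0.0959 to 0.138, 36 pairs), and 6 of 12 libraries were closest to their own number. With a replicate block, 4421 genes were higher and 4713 lower in p16 (4475 and 4752 without it), 4043 and 4065 in p21 (4096 and 4120), 4360 and 4165 with Torin2 against p16 (4417 and 4223), 3890 and 3862 in p21 against p16 (3941 and 3931) and 4467 and 5193 with Torin2 against mVenus (4525 and 5249); no member's call changed. Depth limits precision for the low members, among them HMGN5 with 71 to 156 counts per library and HMGB2 with 114 to 142 in p16 and p21.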
